A study of Homo sapiens with 4 samples.

Results

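PPARGC1A and 9 further genes of hepatic glucose production were followed in 4 hepatoma cultures. The members were the regulators PPARGC1A, PPARGC1B and FOXO1, the enzymes PC, PCK1, PCK2, FBP1 and G6PC, the transporter SLC37A4 and the amino acid enzyme TAT, 10 of the 16370 genes that the count data listed. They were chosen by name, but with their read counts in view: the list was built around PPARGC1A because its HCSC/HCC ratio was below 1 in both pairs of cultures. The HCSC/HCC values of the members are therefore given as a description, with no test.

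Hep3B and Huh7 are human hepatoma cell lines, here the hepatocellular carcinoma (HCC) group. From each of them, cells with stem-like properties were cultured, named Hep3B-C and Huh7-C, which form the hepatic cancer stem cell (HCSC) group. The labels gave no further treatment, genotype or time. RNA was sequenced in 1 library per line, so a difference within a pair had no replicate check, and all intervals and tests on a pair of libraries below cover counting error only. Nothing in the labels tells how many cultures stood behind a library.

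Gluconeogenesis makes glucose from lactate, amino acids and glycerol, and in the body it is carried out mainly by hepatocytes and kidney cells. PPARGC1A encodes PGC-1α, a transcriptional coactivator that fasting hormones induce in the liver and that, together with factors such as FOXO1 and HNF4A, switches on PCK1 and G6PC. Pyruvate carboxylase (PC) and phosphoenolpyruvate carboxykinase (PCK1 in the cytosol, PCK2 in mitochondria) start the pathway, FBP1 bypasses the phosphofructokinase step, and glucose-6-phosphatase (G6PC) with its transporter SLC37A4 releases free glucose.

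Total gene counts lay between 2896418 in Hep3B and 4641927 in Hep3B-C, at which 3 counts, taken as the floor, corresponded to between 0.646 and 1.04 CPM, the count relative to the total of its library. All 10 hepatocyte and hepatoma markers examined had at least 10 counts in every library. AFP and ALB, the fetal and adult serum albumins, were low in the Huh7 pair: AFP had 26 counts in Huh7 and 12 in Huh7-C against 16175 in Hep3B and 4201 in Hep3B-C, and ALB had 482 and 1156 against 56598 and 85731. The labels were kept, and the line identity was not tested. The summed level of the 10 markers was 61847 CPM in Hep3B and 72028 in Hep3B-C, and 51095 in Huh7 and 27052 in Huh7-C, of which SERPINA1 made up 40517 CPM in Huh7. The Hep3B pair listed 15480 genes and the Huh7 pair 14807, and 8 of the 10 members were in both. PCK1 was not listed for the Hep3B pair and FBP1 was not listed for the Huh7 pair, and these were not analysed there. Markers of other cell types were at low but unequal levels. The 4 cholangiocyte markers summed to between 60.4 CPM in Huh7 and 281 CPM in Hep3B, with SOX9 at 265 to 600 counts, KRT19 at 212 counts in Hep3B and 88 in Hep3B-C, and SPP1 at 3 and 137 in the same libraries. Of 7 fibroblast or stellate markers 4 were listed in each pair, summing to between 9.91 and 45.0 CPM, with PDGFRB at 186 counts in Huh7 and 2 in Huh7-C and COL3A1 at 0 and 58. Of 4 endothelial markers 2 were listed in each pair, summing to between 2.80 and 21.5 CPM, with PECAM1 at 17 counts in Huh7 and 93 in Huh7-C. Of 5 leukocyte markers 2 were listed, and CD68, a lysosomal protein, made up nearly all of their sum of 100.1 to 271 CPM, with 289 counts in Hep3B and 1254 in Hep3B-C. The defining genes PTPRC, CDH5 and DCN were not listed in either pair. The part of these cell types in the differences below was not tested.

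One sequence is shown because G6PC had the widest range of levels among the members. The RefSeq promoter table (GRCh38.p14) held entries for 8 of the 10 members, and PCK1 and TAT had none. The 250 bases before the start of G6PC, at chr17:42900549-42900798 on the plus strand, read as follows, with matches to TGTTTTT, the core of an insulin response sequence, and to TTACGTAA, a cAMP response-like sequence, in capitals.

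G6PC: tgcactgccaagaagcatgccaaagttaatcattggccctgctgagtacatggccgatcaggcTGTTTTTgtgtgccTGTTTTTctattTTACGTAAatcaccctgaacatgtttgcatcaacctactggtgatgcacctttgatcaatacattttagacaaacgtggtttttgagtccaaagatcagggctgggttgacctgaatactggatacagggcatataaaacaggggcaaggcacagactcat

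Both strands were searched. TGTTTTT occurred at bases -187 to -181 and -173 to -167, and TTACGTAA at bases -161 to -154, counted back from the start. Of 35116 promoters, those on chr8 being left out of this and the shares below, 6.29% held TGTTTTT and 0.105% held TTACGTAA within these 250 bases. TGTTTTT was also found upstream of 1 start each of PPARGC1A, PC and FOXO1. The full cAMP response element TGACGTCA (1.65% of promoters) and the FOXO-type sequence TGTTTAC (2.98%) were not found upstream of any of the 12 member starts in the table. These matches are letters in a reference and were not measured in the cells.

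PPARGC1A was lower in both HCSC lines. It had 109 counts (37.6 CPM) in Hep3B against 11 (2.37 CPM) in Hep3B-C, and 127 (28.0 CPM) in Huh7 against none in Huh7-C. Both HCSC values were below both HCC values. PPARGC1A was chosen because it was lower in both HCSC lines, so nothing is read from this separation. By the rule for all genes given below, 1.495% of the genes listed in both pairs were called lower in both. Hep3B-C stood 15.9-fold below Hep3B (95% exact conditional interval of the ratio 8.53 to 32.8). Set at the floor of 3 counts, Huh7-C stood 40.4-fold below Huh7. The exact conditional interval, which allows for counting error in both libraries, reached down to 32.4-fold. The log2 fold-change in the Hep3B pair, with 0.5 added to each count, was -3.93 (SE 0.45), and 2.78% of the genes listed for that pair had a lower one. Nothing is read from this rank either. PPARGC1A lies on chromosome 4 (23755041 to 23904089, minus strand, GRCh38), and its 6318-base transcript had a GC content of 40.5%.

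Its paralog PPARGC1B, which encodes the related coactivator PGC-1β, had the opposite order at a low level. It had 5 counts in Hep3B and 18 in Hep3B-C, and 11 in Huh7 and 38 in Huh7-C. Both HCSC libraries were above their HCC library. In the Huh7 pair the ratio was 3.62 (95% interval 1.81 to 7.85), whereas in the Hep3B pair it was 2.25 with an interval of 0.804 to 7.74 that included 1. Per transcript length, PPARGC1A exceeded PPARGC1B in both HCC lines, with 5.96 against 0.529 RPKM (reads per kilobase, scaled to the library total) in Hep3B and 4.43 against 0.743 RPKM in Huh7. In Huh7-C the order was turned, with PPARGC1B at 2.69 RPKM and PPARGC1A at 0. In Hep3B-C PPARGC1B was at 1.19 RPKM and PPARGC1A at 0.375, with counting intervals (0.705 to 1.88 and 0.187 to 0.671) that did not overlap. These levels were not corrected for the GC and length trends of the Hep3B pair described below. The trends were -1.52 in log2 for PPARGC1A and 1.05 for PPARGC1B. With them removed the log2 fold-changes were -2.41 and 0.02, so the order in Hep3B-C is not taken as settled.

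FOXO1, the insulin-restrained transcription factor that works with PGC-1α at gluconeogenic promoters, went in opposite directions in the pairs. It had 284 counts (98.1 CPM) in Hep3B against 76 (16.4 CPM) in Hep3B-C, and 156 (34.4 CPM) in Huh7 against 309 (71.3 CPM) in Huh7-C. Hep3B was the highest library and Hep3B-C the lowest, so the HCC and HCSC ranges overlapped. The log2 fold-change was -2.58 (SE 0.19) in the Hep3B pair and 1.05 (SE 0.14) in the Huh7 pair.

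**Figure D1:**
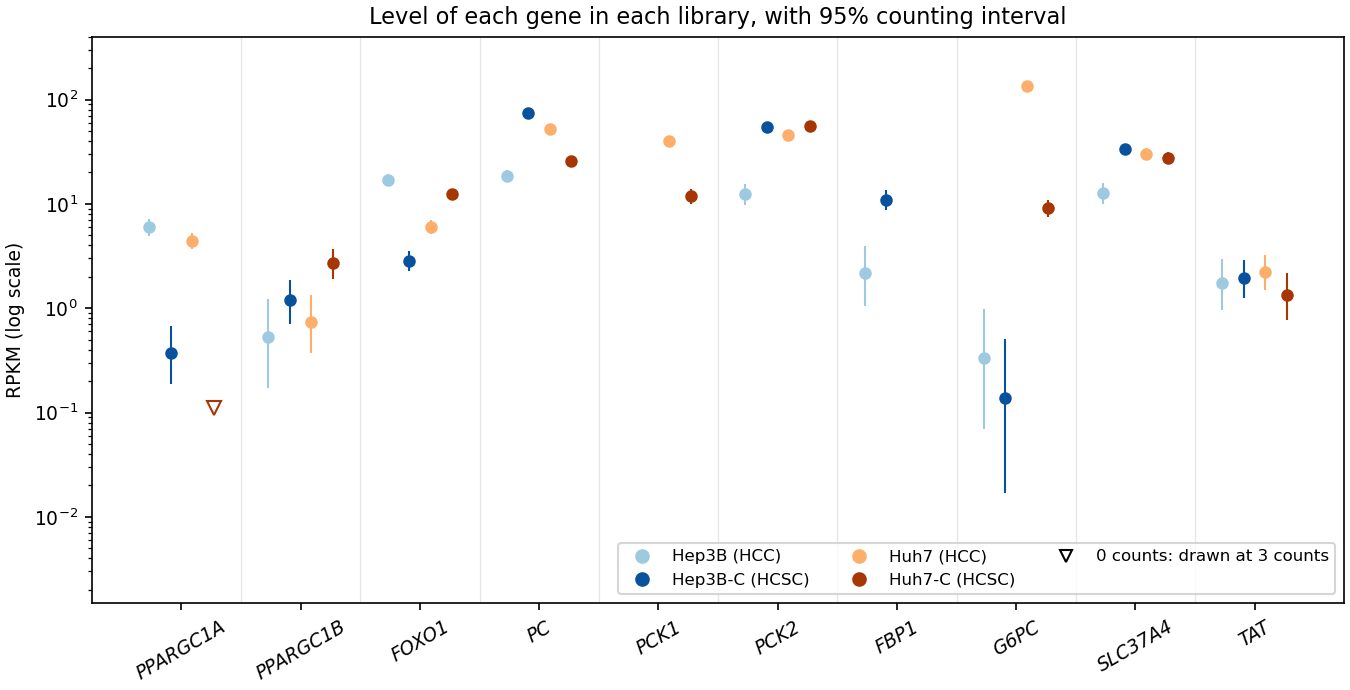
Levels of the 10 genes in the 4 libraries as RPKM on a log axis, with 95% Poisson counting intervals as bars and 1 library per line. PPARGC1A was at 5.96 and 4.43 RPKM in the HCC lines and at 0.375 RPKM in Hep3B-C (the open triangle stands for 0 counts in Huh7-C, drawn at the level of 3 counts), while G6PC ranged from 0.139 RPKM in Hep3B-C to 135 RPKM in Huh7.

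The entry enzymes were next compared. PC, the mitochondrial enzyme that turns pyruvate into oxaloacetate, had 224 counts (77.3 CPM) in Hep3B and 1448 (312 CPM) in Hep3B-C, against 996 (220 CPM) in Huh7 and 469 (108 CPM) in Huh7-C. It was thus higher in Hep3B-C than in Hep3B and lower in Huh7-C than in Huh7. The ratio was 4.03 (95% interval 3.50 to 4.66) in the Hep3B pair, and in the Huh7 pair Huh7-C stood 2.03-fold below Huh7 (1.82 to 2.27). PC shares 621 exonic bases with LRFN4 on the opposite strand in the current annotation, and whether reads were counted by strand was not given in the sources used here. Exons of FOXO1 share 269 bases with LINC00598 on the same strand. Those of FBP1 share 283 bases with PCAT7, and those of TAT 423 with TAT-AS1, on the opposite strand.

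PCK2, the mitochondrial phosphoenolpyruvate carboxykinase, had 80 counts (27.6 CPM) in Hep3B against 561 (121 CPM) in Hep3B-C, and 459 (101 CPM) in Huh7 against 533 (123 CPM) in Huh7-C. Hep3B alone was low. The log2 fold-change was 2.12 (SE 0.17) in the Hep3B pair and 0.28 (SE 0.09) in the Huh7 pair. PCK1, the cytosolic enzyme and a classical PGC-1α target, had 489 counts (108 CPM) in Huh7 and 137 (31.6 CPM) in Huh7-C. Huh7-C stood 3.41-fold below Huh7 (95% interval 2.82 to 4.15). In Huh7 the isoenzymes were close per transcript length, at 40.1 RPKM for PCK1 and 45.6 RPKM for PCK2, whereas in Huh7-C PCK1 was at 11.8 RPKM and PCK2 at 55.4 RPKM.

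FBP1, which removes a phosphate from fructose 1,6-bisphosphate, had 10 counts (3.45 CPM) in Hep3B and 81 (17.5 CPM) in Hep3B-C. The ratio was 5.05, with a 95% interval of 2.61 to 10.9 that reflects the low count of Hep3B.

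G6PC, the catalytic subunit of glucose-6-phosphatase, separated the parental lines. It had 3 counts in Hep3B against 2 in Hep3B-C, and 1895 (418 CPM) in Huh7 against 122 (28.1 CPM) in Huh7-C. Both libraries of the Hep3B pair were at or under the floor, so no fold is given for them. Huh7-C stood 14.8-fold below Huh7 (95% interval 12.35 to 17.97). The log2 fold-change of G6PC was -3.89 (SE 0.13), and 0.399% of the genes listed for that pair had a lower one. This value was in view when the members were chosen, so nothing is read from its rank. Huh7-C kept a G6PC level of 9.09 RPKM, above the 0.335 RPKM of Hep3B.

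SLC37A4, which carries glucose 6-phosphate into the endoplasmic reticulum for G6PC, was measured as well. It had 76 counts (26.2 CPM) in Hep3B against 325 (70.01 CPM) in Hep3B-C, and 285 (62.8 CPM) in Huh7 against 250 (57.7 CPM) in Huh7-C. Only Hep3B was low. The ratio was 2.67 (95% interval 2.07 to 3.47) in the Hep3B pair, and 0.918 in the Huh7 pair with an interval of 0.772 to 1.09 that included 1. Its exons share 544 bases with TRAPPC4 on the opposite strand. TAT, the tyrosine aminotransferase of amino acid catabolism, was low in every library, with 14 counts in Hep3B against 25 in Hep3B-C, and 28 in Huh7 against 16 in Huh7-C. The intervals of its ratio, 0.557 to 2.32 in the Hep3B pair and 0.302 to 1.15 in the Huh7 pair, included 1, so no difference was detectable at this depth.

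**Figure D2:**
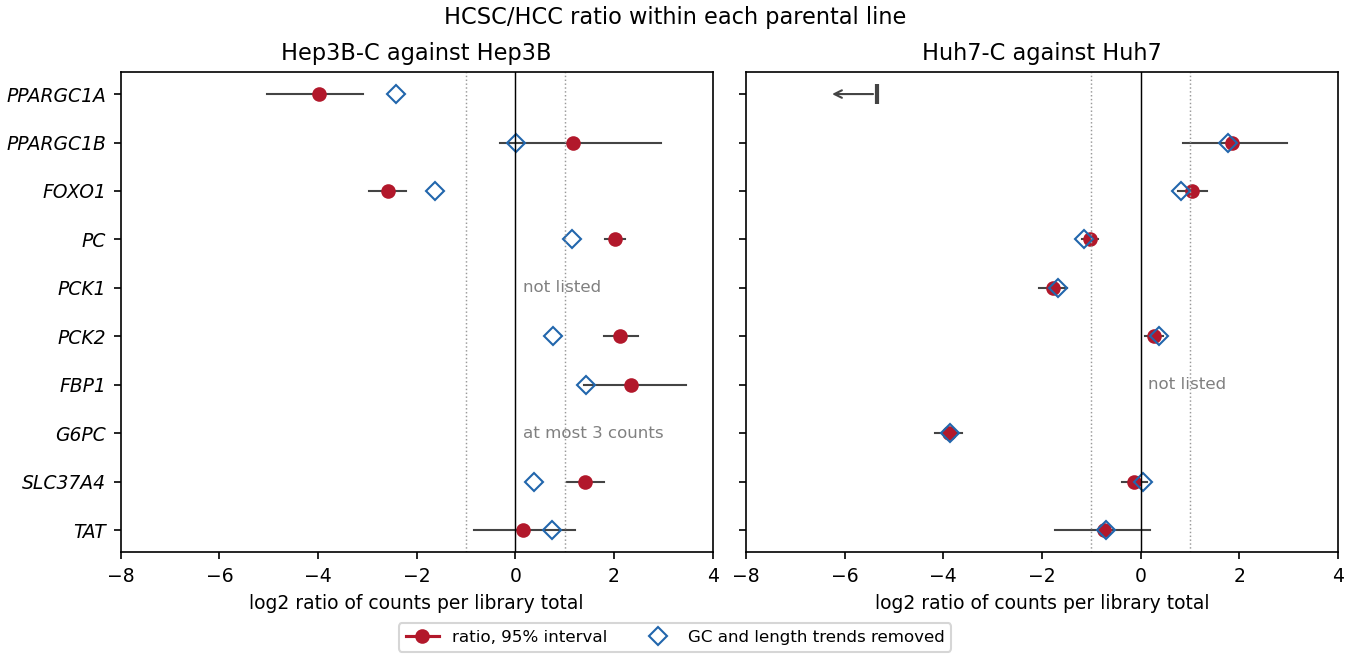
HCSC/HCC ratio of each gene within the Hep3B pair (left) and the Huh7 pair (right) on a log2 axis, with 95% exact conditional intervals, dotted lines at a 2-fold difference and open diamonds for values after removal of GC and length trends. PPARGC1A was low in both panels, whereas FOXO1 and PC lay on opposite sides of 0 in the panels. The arrow for PPARGC1A in the Huh7 panel starts at 40.4-fold, with Huh7-C set at the floor of 3 counts and no interval drawn.

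The members were also read against the rule used for all genes, a false discovery rate (FDR) of at most 0.01 in the Audic-Claverie test and a difference of at least 2-fold. In the Hep3B pair 4 of 9 listed members were past this rule on the higher side in Hep3B-C (PC, PCK2, FBP1 and SLC37A4) and 2 on the lower side (PPARGC1A and FOXO1), where 13.2% and 30.4% of all genes were called higher and lower (21.6% and 18.1% with TMM scaling). In the Huh7 pair 2 of 9 were past it on the higher side (PPARGC1B and FOXO1) and 4 on the lower side (PPARGC1A, PC, PCK1 and G6PC), where 4.19% and 4.15% of all genes were called. Since these contrasts were in view when the members were chosen, nothing is read from these counts. Of the members past the rule, PC (log2 fold-change -1.02) and FOXO1 (1.05) in the Huh7 pair were nearest to the fold limit. PPARGC1B in the Hep3B pair (1.07, SE 0.70) rested on 5 and 18 counts and was not past the rule, and TAT in the Huh7 pair (-0.72, SE 0.45) was the nearest below the fold limit. The median log2 fold-change of the 8 members with at least 10 counts in the Hep3B pair was 1.24, beside -0.60 over 12383 genes, and that of the 9 in the Huh7 pair was -0.72, beside 0.06 over 11951 genes. TMM scaling, which raised every value of the Hep3B pair by 0.60, put its median over all genes at -0.01. These medians too are a description, and nothing is read from them.

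Fold-changes in the Hep3B pair moved with base composition and transcript length, and the members are spread along that range. Across 11338 genes the Spearman correlation of log2 fold-change was 0.63 with GC content and -0.43 with length, against -0.06 and 0.32 across 11060 genes of the Huh7 pair, as a description across genes. In the Hep3B pair the median log2 fold-change was -1.54 among the 1134 genes in the GC range of PPARGC1A and 0.81 among the 1134 in the range of PC, PCK2 and PPARGC1B. The 4 members on the higher side had GC contents between 53.1% and 61.1%, and those on the lower side 40.5% and 46.4%.

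With the trends with GC content and length removed, the log2 fold-change in the Hep3B pair was -2.41 for PPARGC1A and -1.63 for FOXO1. PC (1.14) and FBP1 (1.44) were still past the rule, but PCK2 (0.76) and SLC37A4 (0.37) were not. PPARGC1B was left at 0.02. In the Huh7 pair the same step left G6PC at -3.86, PCK1 at -1.68, PC at -1.14 and PPARGC1B at 1.77, all past the rule, and FOXO1 at 0.82, which was not. Scaling by TMM or DESeq2 size factors, in place of the total gene count, raised every log2 fold-change of the Hep3B pair by 0.60 or 0.68. No member past the rule in that pair changed direction under any of these settings, and FOXO1 in the Huh7 pair was at 0.98 with DESeq2 size factors, short of the fold limit.

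**Figure D3:**
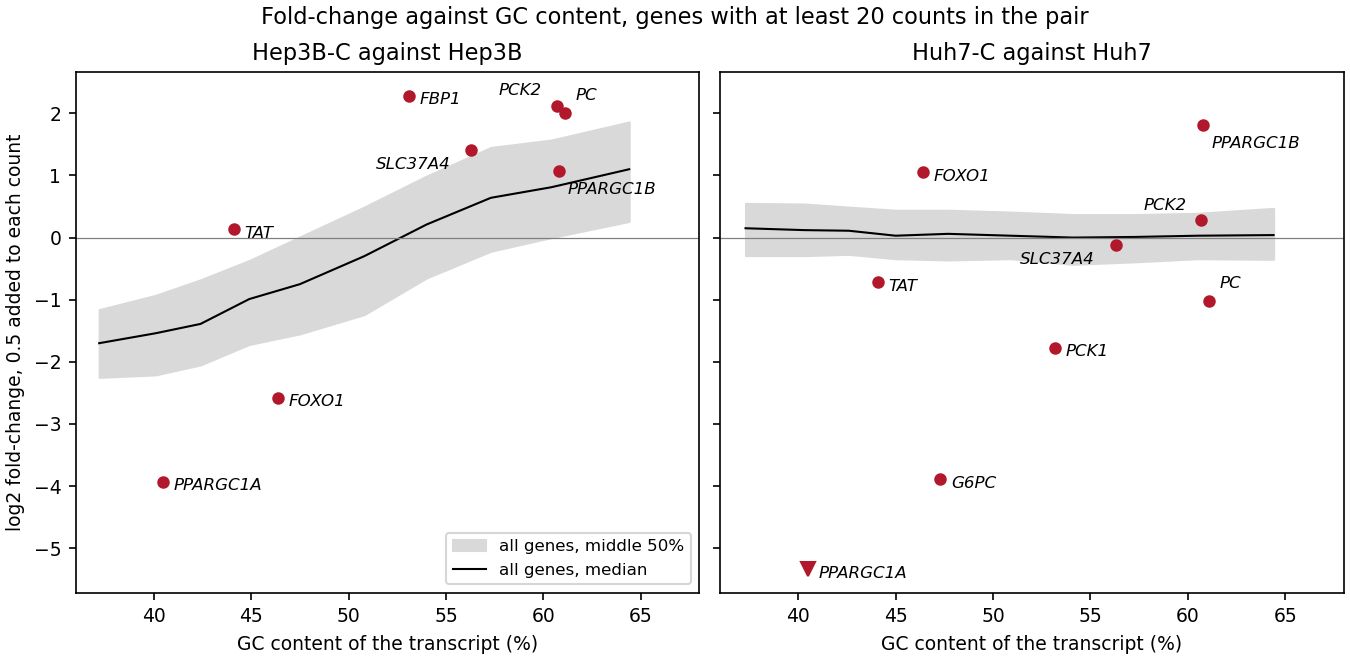
Log2 fold-change (0.5 added to each count) of the members with at least 20 counts in a pair against the GC content of their transcript in percent, over the median (line) and the range between the quartiles (grey band) of all genes in 10 GC classes. In the Hep3B pair (left) the median of all genes climbed from -1.70 to 1.10 with GC content, while in the Huh7 pair (right) it stayed between 0.15 and 0.00. The triangle marks PPARGC1A with Huh7-C set at the floor of 3 counts.

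The levels of the members were also set side by side between the parental lines. Since their counts in every line were known when they were chosen, these values too are a description of single libraries, with no test. Of the 8 members listed in both pairs, 4 were past the same rule on the higher side in Huh7 (17.5% of 13917 genes were called higher) and 1 on the lower side (28.3% called lower). With TMM scaling these shares of all genes were 23.0% and 23.1%. G6PC showed the widest difference, a ratio of 403 with a counting interval of 138 to 1957. PCK2 (log2 fold-change 1.87, SE 0.17), PC (1.50, SE 0.11) and SLC37A4 (1.25, SE 0.19) were also higher in Huh7. FOXO1 was lower in Huh7 (-1.51, SE 0.14). PPARGC1A was at -0.43 (SE 0.19), and its sign turned to 0.91 with GC and length trends removed. With these trends removed, SLC37A4 (0.43) and FOXO1 (-0.82) fell short of the fold limit, while G6PC (8.44), PC (1.34) and PCK2 (1.11) stayed past the rule.

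Between the HCSC lines the order of several members was different. Of the same 8 genes, 3 were past the rule on the higher side in Huh7-C (18.7% of all genes called higher) and 2 on the lower side (11.6% called lower), shares that TMM scaling moved to 14.6% and 14.9%. G6PC was higher in Huh7-C, on 122 against 2 counts, with a ratio of 65.3 and a counting interval of 17.7 to 546. FOXO1 (log2 fold-change 2.12, SE 0.18) was now higher in the Huh7-derived line and PC (-1.53, SE 0.08) lower, each the reverse of its order between the HCC lines. PPARGC1B was higher in Huh7-C (1.16, SE 0.41), though at 0.95 it was short of the fold limit with TMM or DESeq2 scaling. PC was at -0.93 with GC and length trends removed, also short of it. PPARGC1A, at 0 against 11 counts, was 3.42-fold lower in Huh7-C when set at the floor of 3 counts, and its exact interval reached down to 2.34-fold. PCK2 did not differ detectably (ratio 1.02, 95% interval 0.902 to 1.15).

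Ordered by RPKM, PC led in Hep3B (18.5) and Hep3B-C (74.4), G6PC in Huh7 (135) and PCK2 in Huh7-C (55.4). In Hep3B the intervals of PC, FOXO1 (17.1), SLC37A4 (12.7) and PCK2 (12.4) overlapped from each to the next. In Hep3B-C the counting interval of each of the first 4, PC, PCK2 (54.4), SLC37A4 (33.8) and FBP1 (10.95), was clear of the next. These levels were not corrected for the GC and length trends of the Hep3B pair. The trends were 0.87, 1.36, 1.04 and 0.84 in log2 for these genes and -0.95 for FOXO1, the next. The order in Hep3B-C is therefore not taken as settled. In Huh7 G6PC was clear of PC (52.4), while PC, PCK2 and PCK1 overlapped in turn. In Huh7-C PCK2 was clear of SLC37A4 (27.8), which overlapped PC (25.8).

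The genes whose pattern over the 4 libraries was most like that of PPARGC1A were ABLIM3, CUX2, C10orf10, CXCL12 and HULC. Likeness was the root mean square difference of log2(CPM + 0.5), centred for each gene, over 4 libraries, and was 0.60, 0.60, 0.64, 0.69 and 0.81 for these genes among 9724 ranked. ABLIM3 had 120 counts in Hep3B against 28 in Hep3B-C, and 148 in Huh7 against 4 in Huh7-C. CXCL12, a chemokine, had 319, 134, 992 and 15 counts in the same order. The 5 other members with enough counts in the ranking were farther: FOXO1 was at rank 5032, PC at 6324, SLC37A4 at 7510, PCK2 at 9065 and G6PC at 9659.

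The wider pathway was taken from 8 lists of genes around the members. They were drawn up with earlier results of these data known. The counts and shares called, here and below, are therefore a description, and nothing is read from them. Of 161 such genes in the Hep3B pair, 37 (23.0%) were called higher in Hep3B-C and 45 (28.0%) lower by the same rule (55 and 29 genes with TMM scaling). Of 159 in the Huh7 pair, 8 (5.03%) were called higher in Huh7-C and 15 (9.43%) lower. Over all genes, 13.2% were called higher and 30.4% lower in Hep3B-C (21.6% and 18.1% with TMM scaling), and 4.19% and 4.15% in Huh7-C. These shares of all genes stand beside the counts of each list below. With GC and length trends removed 23 and 28 genes were called higher and lower in Hep3B-C, where 5.27% and 21.1% of all genes were.

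Hormone and kinase control of the pathway (insulin, glucagon, AMPK, CREB) had 15 of 29 genes lower and 1 higher in Hep3B-C. With TMM scaling these were 9 and 2, and with GC and length trends removed 10 and 1. In Huh7-C 1 of 29 was lower and 1 higher. Values in parentheses here and below are log2 fold-changes with their SE. The median of the list was -1.18 in the Hep3B pair, beside -0.60 for all genes, both with the GC and length trends left in. PRKAA1 and PRKAA2, the catalytic subunits of AMPK, went from 667 to 203 and from 215 to 65 counts in Hep3B-C (-2.39 and -2.40), but were at -0.82 and -0.41 with GC and length trends removed. TRIB3, a stress-induced pseudokinase that binds AKT, went from 107 to 2895 counts (4.07, SE 0.14). IGFBP1, a secreted IGF-binding protein and a classical FOXO1 target, fell in both pairs, from 205 to 89 counts in the Hep3B pair (-1.88, SE 0.18) and from 17240 to 1995 in the Huh7 pair (-3.04, SE 0.03). EP300, a histone acetyltransferase, rose in Huh7-C from 344 to 756 counts (1.20, SE 0.09; 0.88 with trends removed) and fell in Hep3B-C from 831 to 458 (-1.54, SE 0.08; -0.96 with trends removed).

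Among partners and regulators of PGC-1, 13 of 30 genes were lower and 3 higher in Hep3B-C. With TMM scaling these were 8 and 6, and with GC and length trends removed 9 and 1. In Huh7-C 5 of 29 were lower and 1 higher. NR1H4, the bile acid receptor FXR, was lower in both, with 165 and 16 counts in the Hep3B pair (-4.01, SE 0.37) and 46 and 15 in the Huh7 pair (-1.52, SE 0.42). NR5A2, a nuclear receptor of bile acid and cholesterol metabolism, fell in Hep3B-C from 366 to 73 counts (-3.00, SE 0.18). KLF15, a transcription factor of amino acid use and gluconeogenesis, fell in Huh7-C from 94 to 18 (-2.29, SE 0.37), and NR0B2, the corepressor SHP, went from 36 counts to 3. MYBBP1A, a nucleolar protein that binds and represses PGC-1α, was higher in both HCSC lines, from 249 to 2048 counts (2.36, SE 0.10) and from 311 to 748 (1.33, SE 0.10). PRMT1, an arginine methyltransferase, rose in Hep3B-C from 410 to 2305 counts (1.81, SE 0.08), but stood at 0.29 with GC and length trends removed.

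Target genes of PGC-1 outside gluconeogenesis had calls in both directions. Of 28 in the Hep3B pair, 5 were higher and 4 lower (10 and 2 with TMM scaling, 5 and 2 with GC and length trends removed). Of all genes in that pair 13.2% were called higher and 30.4% lower. Of 26 in the Huh7 pair, 2 were higher and 2 lower, beside 4.19% and 4.15% of all genes. PDK4, which inhibits pyruvate dehydrogenase, rose in Huh7-C from 14 to 83 counts (2.59, SE 0.41) and was called lower in Hep3B-C, with 14 counts in Hep3B and 1 in Hep3B-C. APOC3, an apolipoprotein, and CPT1A, which carries fatty acids into mitochondria, fell in Huh7-C, from 931 to 108 counts (-3.04, SE 0.15) and from 2320 to 986 (-1.17, SE 0.05). In Hep3B-C SOD2, the mitochondrial superoxide dismutase, fell from 1014 to 537 (-1.60, SE 0.08). COX5B rose in Hep3B-C from 201 to 1159 (1.84, SE 0.11), but was at 0.27 with the trends removed, and ACADM fell from 126 to 97 (-1.06, SE 0.19), at -0.24 with them removed.

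**Figure D4:**
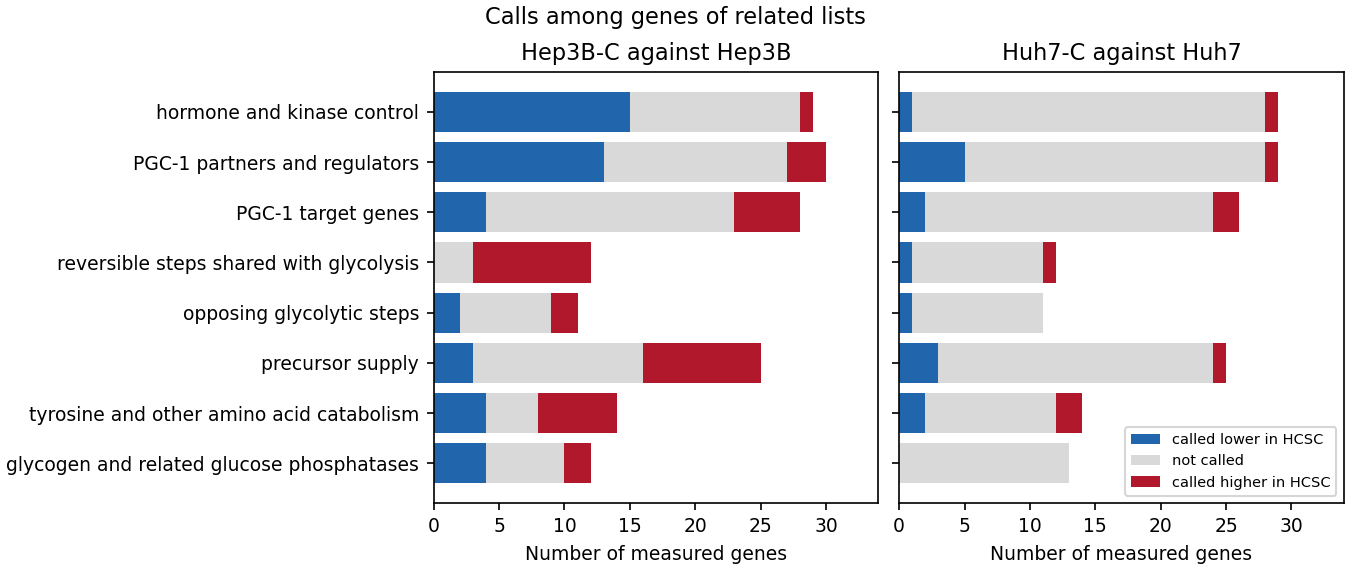
Number of measured genes of the 8 related lists called lower (blue), not called (grey) or called higher (red) in the HCSC line of the Hep3B pair (left) and of the Huh7 pair (right). Of 12 enzymes of the reversible steps, 9 were called higher in Hep3B-C, and in Huh7-C most genes of every list were not called.

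The reversible steps that gluconeogenesis shares with glycolysis had 9 of 12 genes higher in Hep3B-C and none lower, with 3 higher once GC and length trends were removed. ENO1 (enolase) went from 2714 to 20699 counts (2.25, SE 0.03; 0.97 with trends removed) and the mutase PGAM2 from 35 to 1337 (4.56, SE 0.25; 2.54 with trends removed). In the Huh7 pair 1 of 12 was higher, ALDOC (aldolase C), from 9 to 77 counts (3.09, SE 0.50), and 1 was lower, ENO3, from 49 to 14 (-1.71, SE 0.43). Of 11 enzymes of the opposing glycolytic steps, 2 were higher and 2 lower in Hep3B-C (3 and 1 with TMM scaling, 1 and 2 with trends removed). In Huh7-C none was higher and 1 lower. PKLR, the liver pyruvate kinase that opposes PC and PCK1, rose in Hep3B-C from 83 to 950 counts (2.83, SE 0.16), and the liver phosphofructokinase PFKL from 237 to 981 (1.37, SE 0.10; 0.18 with trends removed). PFKFB3 and HK2, which drive glycolysis, fell from 149 to 36 counts (-2.71, SE 0.27) and from 839 to 490 (-1.46, SE 0.08; -0.91 with trends removed). The lower gene in Huh7-C was PFKP, from 1119 to 485 counts (-1.14, SE 0.08).

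Precursor supply (lactate, alanine, aspartate and glycerol entry) had 9 of 25 genes higher and 3 lower in Hep3B-C, or 7 and 2 with GC and length trends removed. In Huh7-C 1 was higher and 3 lower. LDHA, the lactate dehydrogenase subunit typical of glycolytic cells, had 6563 counts in Hep3B and 2181 in Hep3B-C (-2.27, SE 0.04). PDK1, another inhibitor of pyruvate dehydrogenase, fell from 253 to 50 (-3.01, SE 0.22). SLC25A10, the mitochondrial dicarboxylate carrier, rose from 81 to 1483 (3.51, SE 0.16), and GPD1, the cytosolic glycerol 3-phosphate dehydrogenase, had 3 counts in Hep3B and 131 in Hep3B-C. In Huh7-C the mitochondrial GPD2 rose from 85 to 265 counts (1.70, SE 0.18), and LDHD and the glycerol channel AQP3 fell from 94 to 24 (-1.88, SE 0.33) and from 43 to 10 (-1.98, SE 0.50). AQP3 rose in Hep3B-C from 25 to 99 (1.28, SE 0.32; 0.11 with trends removed).

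Tyrosine and other amino acid catabolism, the pathway of TAT, had calls in both directions. Of its 14 genes, 6 were higher and 4 lower in Hep3B-C (4 and 2 with GC and length trends removed), and 2 higher and 2 lower in Huh7-C. HPD, the enzyme after TAT in tyrosine breakdown, rose in both pairs, from 97 to 2228 counts (3.83, SE 0.15) and from 29 to 151 (2.43, SE 0.29). FAH, the last enzyme of that route, rose in Hep3B-C from 76 to 1914 (3.96, SE 0.17). HAL, which breaks down histidine, fell in Hep3B-C from 739 to 197 (-2.59, SE 0.12). PRODH (proline dehydrogenase) rose in Huh7-C from 4 to 99 (4.53, SE 0.70), and HGD fell from 999 to 422 (-1.18, SE 0.08; -0.99 with trends removed), while it rose in Hep3B-C from 86 to 436 (1.65, SE 0.17).

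Glycogen and glucose phosphatase genes had 2 of 12 higher and 4 lower in Hep3B-C (4 and 2 with TMM scaling, 1 and 1 with trends removed). None of 13 was called in Huh7-C. G6PC3, the ubiquitous relative of G6PC, went from 66 to 571 counts in Hep3B-C (2.42, SE 0.19; 0.78 with trends removed) and the phosphorylase PYGB from 96 to 607 (1.97, SE 0.16). UGP2 and the branching enzyme GBE1 fell, from 453 to 185 (-1.97, SE 0.13) and from 104 to 52 (-1.67, SE 0.24; -0.94 with trends removed). Of 156 genes of the lists in both pairs, 5 (3.21%) were called higher in both, among them MYBBP1A, ALDOC, HPD and PRODH, and 2 (1.28%) lower in both, IGFBP1 and NR1H4, beside 0.568% and 1.49% of all 13917 genes. Another 4 (2.56%, beside 2.45% of all genes) were called in opposite directions, AQP3, EP300, HGD and PDK4. Since the lists were chosen with earlier results known, nothing is read from these shares. Of the genes called higher in both, ALDOC (1.30) and PRODH (1.79, on 7 and 41 counts) were at 0.18 and 0.34 in the Hep3B pair with GC and length trends removed. MYBBP1A and HPD were at 1.57 and 2.48 there.

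Finally, HCSC and HCC were compared over both parental lines with edgeR, with the parental line as a block, so that the 2 lines served as replicates. The fit had 1 residual degree of freedom and a biological coefficient of variation (BCV) of 0.514. Of 11431 genes, 4 (0.035%) were called higher and 5 (0.0437%) lower in HCSC at an FDR of at most 0.05. None of the 146 related genes in the fit was called (lowest FDR 0.324); at an unadjusted p under 0.05 there were 11, beside 3.02% of all genes, and DESeq2 called 1 of 156, HPD (log2 fold-change 3.40, adjusted p = 0.0127). The fitted log2 fold-changes of the members, given as a description, were -5.04 for PPARGC1A, -3.11 for G6PC, 1.67 for PPARGC1B, 1.36 for PCK2, 0.81 for SLC37A4, 0.66 for PC, -0.59 for FOXO1 and -0.13 for TAT. The value of G6PC rests on the Huh7 pair, since the gene was at or under the floor in the Hep3B pair.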

How the data were processed

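RNA was sequenced on an Illumina Genome Analyzer II in 4 libraries, 1 per cell line. According to the study's methods, the authors filtered adapters and low-quality reads, aligned to NCBI Build 36.1 with NextGENe and counted reads per transcript. The files deposited held raw whole-number counts for each gene beside its length. The aligner version, annotation, strand setting and handling of multiply mapped reads were not given in the sources used here.

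The members and gene lists were chosen with earlier results of these data known. Named were all 10 members, per related list and pair up to 2 genes called in each direction with the largest change (at least 20 counts in 1 library), markers and the 5 genes most like PPARGC1A (at least 50 counts in 1 library). The genes called alike in both pairs were singled out after their values were seen. A few genes that this rule names are not reported here. CPM and RPKM were computed here from counts, lengths and total gene counts.

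Pairs of libraries were compared with the Audic-Claverie test, the tail doubled, Benjamini-Hochberg adjustment over all genes of the comparison, and calls at an FDR of at most 0.01 and at least 2-fold. For members, being past this rule is a description and not a test. HCSC and HCC were compared with edgeR 4.0.16 (quasi-likelihood, TMM, filterByExpr) on genes listed in both pairs. GC content and positions came from GENCODE release 29 (GRCh38) and serve as annotation, the alignment having used an earlier build. Trends with GC content and length were fitted with mgcv 1.9.3 in R 4.3.3, and other steps were run in Python 3.11.15 with scipy 1.17.1. Same-line libraries deviated together from their group means (correlation across genes 0.48), and the pairing comes from the parental line in the labels. The tests were also tried on simulated data. For the fit over both lines these had a smaller BCV than the fit found here, so nothing is read from them on its power in these data.

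Alternatives were TMM and DESeq2 1.42.0 scaling, 5 added to each count, a filter of 10 counts, an exact binomial test, an assumed BCV of 0.4, removal of GC and length trends and, for the fit over both lines, no parental line block, DESeq2, no TMM, no filter and each library left out. Removal of the length trend alone, genes of 1 pair taken as 0 in the other, and the deposited gluconeogenesis annotation were added after the data were seen.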

Additional observations from a re-analysis of the deposited data

Results flagged for a closer look

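FOXO1 and PC had HCSC/HCC differences of opposite sign in the pairs. The log2 fold-change of FOXO1 in Hep3B-C minus that in Huh7-C was -3.63, from -2.58 (SE 0.19) and 1.05 (SE 0.14). For PC the same difference was 3.03, from 2.01 (SE 0.10) and -1.02 (SE 0.08). With 1 library per line the difference was not tested in either gene. With GC and length trends removed the signs were kept, at -1.63 and 0.82 for FOXO1 and at 1.14 and -1.14 for PC.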

How the results depend on the processing

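With 1 library per line, the depth limits statements on PPARGC1B, TAT, FBP1 and G6PC in the Hep3B pair, and the spread between cultures was not measured. In the Hep3B pair the count of members past the rule was 4 higher and 2 lower, and became 0 and 1 with an assumed BCV of 0.4, and 2 higher with GC and length trends removed. In the Huh7 pair it was 2 higher and 4 lower, and became 1 higher with DESeq2 size factors, with GC and length trends removed or with the length trend alone removed, and 0 higher and 1 lower at a BCV of 0.4. Related genes called higher in Hep3B-C numbered 37, but 57 with DESeq2 size factors, 5 at a BCV of 0.4 and 23 with GC and length trends removed; those called lower numbered 45, but 29 with TMM, 25 with DESeq2 size factors, 1 at a BCV of 0.4 and 28 with the trends removed. In Huh7-C the 8 higher and 15 lower became 0 and 0 at a BCV of 0.4. The shares of all genes moved too. In Hep3B-C they went from 13.2% higher and 30.4% lower to 21.6% and 18.1% with TMM, and to 5.27% and 21.1% with the trends removed. In Huh7-C they went from 4.19% and 4.15% to 3.13% and 3.92% with the trends removed. Shares at a BCV of 0.4 or with DESeq2 size factors are not given here. None of these changes is read as particular to the members or related genes. Between Huh7 and Hep3B the 4 higher and 1 lower members became 1 and 0 at a BCV of 0.4, and 0 were lower with GC and length trends or length alone removed. Between Huh7-C and Hep3B-C the 3 higher and 2 lower became 1 and 0 at a BCV of 0.4, and 1 was lower with GC and length trends removed. Before these alternatives, 17.5% and 28.3% of all genes were called higher and lower in Huh7, and 18.7% and 11.6% in Huh7-C. Over both lines, edgeR called 4 genes higher and 5 lower with the parental line as a block, and 0 and 0 without this replicate block, 8 and 13 with DESeq2, and 3 lower without TMM. Leaving out each library in turn, in the fit without the block, gave 0 to 3 higher and 0 to 8 lower. There the lone library of a group is assumed to vary like the other group. No member reversed its direction where it was past the rule. The cause of these changes was not tested.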

Other observations

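The gene annotation deposited with the counts assigned the term gluconeogenesis to 15 genes of the Hep3B pair beyond the members, 11 of them already on the related lists. Of the 15, 8 were called higher and 0 lower in Hep3B-C by the Audic-Claverie test and rule used above, beside 13.2% and 30.4% of all genes (21.6% and 18.1% with TMM scaling). With GC and length trends removed 6 were called higher and 0 lower, beside 5.27% and 21.1% of all genes. In the Huh7 pair 1 of 16 was called higher and 1 lower, beside 4.19% and 4.15%. This list was looked up after the data were seen.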
